A study of Mus musculus with 36 samples.

Results

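The 35 interferon-stimulated genes described here were picked by symbol. A gene's value came from the non-control array probe that carried its symbol and had the highest mean log2 signal over 36 mouse liver arrays. All 35 symbols were found, on 62 probes, and all 35 genes were kept among the 24097 genes tested on these arrays. 34 of them were well above background on all 36 arrays, and Oas1g missed that mark on 1 array of the fasted CTRL group.

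Interferons are secreted signals of antiviral defence. Type I interferons bind the receptor pair Ifnar1 and Ifnar2, and the kinases Jak1 and Tyk2 then activate a complex that holds Stat2 and Irf9 and binds a promoter element called the ISRE. Interferon gamma acts through another element, called GAS. The induced genes include the regulators of the response itself, sensors of viral RNA, and effectors that bind foreign RNA, degrade RNA or attack membranes around pathogens, and hepatocytes as well as immune cells of the liver can make them.

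Liver RNA was measured in male C57Bl/6J mice, in 6 groups of 6 arrays made of 2 genotypes and 3 conditions. AAKO mice lack ATGL, the triglyceride lipase made by the gene Pnpla2, in their white fat, and CTRL mice are the controls; the labels give neither the ages nor the Cre driver. Fed mice ate freely, fasted mice went 24 h without food, and CL316243 mice were fed and received 3 mg/kg of this agonist of the beta 3 adrenergic receptor, which stimulates fat breakdown in adipocytes, by gavage at ZT10 in 0.5% carboxymethyl cellulose. All mice were killed at ZT16, where ZT0 is lights on. The fed groups belong to experiment 2 and the other groups to experiment 1, so in every comparison with fed mice the condition cannot be told apart from the experiment, and a gavage is stated for the CL316243 groups alone. The genotypes were compared inside each condition, and fasted with CL316243-treated mice inside experiment 1. The labels do not say how the mice of a group were bred or housed, so p-values measure the spread between these samples.

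Between 35770 and 39868 of 59305 spots per array were well above background. All 6 hepatocyte markers checked (Alb, Ttr, Apoa1, Cyp2e1, Tat, Ass1) were well above background on every array, in keeping with the label liver. Pnpla2 itself was measured outside the tissue of the deletion and therefore does not check the genotype labels; its level in the liver of AAKO against CTRL mice differed by -0.45 in fed mice (adjusted p = 0.655, limma), 1.30 in fasted mice (adjusted p = 8.25e-07) and 0.65 after CL316243 (adjusted p = 0.0104). A difference in bulk liver RNA cannot tell fewer cells of a type from less RNA per cell. Levels below are log2 signals from which the array's own 75th percentile was taken off, so a level of 0 is the brightness of that percentile. Levels of different genes are not compared, because each probe has its own brightness. A gene is said to be called in a comparison at an adjusted p under 0.05 (limma, Benjamini-Hochberg over all tested genes), differences are log2 fold changes with the standard error of the fit, and rose or fell is written of called genes.

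The promoters of the members are shown because the elements named above can be read in them. The RefSeq table for GRCm38.p6 held a promoter of 26 of the 35 members, 30 promoters in all, each running from 250 bases before the start of transcription to 50 bases after it. The ISRE letters GAAANNGAAA, searched on both strands, were in 16 of the 26 members (61.5%), against 3.99% of 27025 genes in the table. The GAS letters TTCNNNGAA, which read the same on both strands, were in 8 of the 26 (30.8%), against 9.55% of all genes. In Bst2 a match of each kind overlapped. The 5 stretches below end at the base before the start, are written on the strand of the gene, and carry ISRE and GAS matches in capitals. They were chosen to show a run of overlapping ISRE matches, pairs on the opposite strand, and an ISRE match beside a GAS match.
Isg15, chr4:156200819-156200948, minus strand: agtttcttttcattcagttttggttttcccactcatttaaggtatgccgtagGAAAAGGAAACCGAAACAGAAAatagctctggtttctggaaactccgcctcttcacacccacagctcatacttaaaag
Ifit1, chr19:34640759-34640888, plus strand: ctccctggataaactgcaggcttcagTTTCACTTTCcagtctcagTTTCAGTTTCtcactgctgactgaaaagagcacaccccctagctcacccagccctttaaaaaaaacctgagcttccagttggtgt
Oas1a, chr5:120907526-120907655, minus strand: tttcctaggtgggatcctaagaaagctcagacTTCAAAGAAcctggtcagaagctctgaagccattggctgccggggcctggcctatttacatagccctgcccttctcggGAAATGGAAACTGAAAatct
Igtp, chr11:58199426-58199555, plus strand: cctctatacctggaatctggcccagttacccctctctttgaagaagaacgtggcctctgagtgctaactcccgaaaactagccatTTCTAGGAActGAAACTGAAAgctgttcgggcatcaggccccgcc
Irgm2, chr11:58214847-58214976, plus strand: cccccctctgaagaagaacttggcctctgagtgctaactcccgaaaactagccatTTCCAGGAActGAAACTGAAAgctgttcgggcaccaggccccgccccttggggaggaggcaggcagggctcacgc

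In Isg15 the 3 ISRE matches began 78, 72 and 66 bases before the start, and in Ifit1 the 2 matches began 104 and 85 bases before it. In Igtp a GAS match began 45 bases before the start and an ISRE match 34 bases before it, and in Irgm2, a neighbouring gene of the same family, these distances were 75 and 64 bases. Of the 16 members with ISRE letters 12 were called higher after CL316243 than in fed CTRL mice, with a median difference of 0.55, and of the 10 members without them 5 were called, with a median of 0.53; 10.4% of all tested genes were called higher. Between fasted and treated CTRL mice 16 of the 16 and 9 of the 10 were called lower, with medians of -1.30 and -1.26, where 19.3% of all tested genes were called lower. A match describes letters in this window and is not a binding site.

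Across the 6 groups the members moved over a wide range and mostly together. The mean level of the 35 members was highest after CL316243 in CTRL mice, where it lay between 2.23 and 2.66 on the 6 arrays, and lower after CL316243 in AAKO mice, between 1.64 and 2.16. In fed mice it lay between 1.40 and 1.84 (CTRL) and between 1.55 and 1.80 (AAKO). It was lower in fasted CTRL mice, between 0.62 and 1.20, and lowest in fasted AAKO mice, between 0.22 and 0.74. The highest group mean was that of CTRL mice after CL316243 for 29 of the 35 members. The lowest was that of fasted AAKO mice for 22 members and of fasted CTRL mice for 10. The exceptions at the top were Stat2 and Mx2 (AAKO, CL316243), Trim25 (AAKO fasted), and Oas1g, Gbp2 and Bst2 (a fed group).

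**Figure D1:**
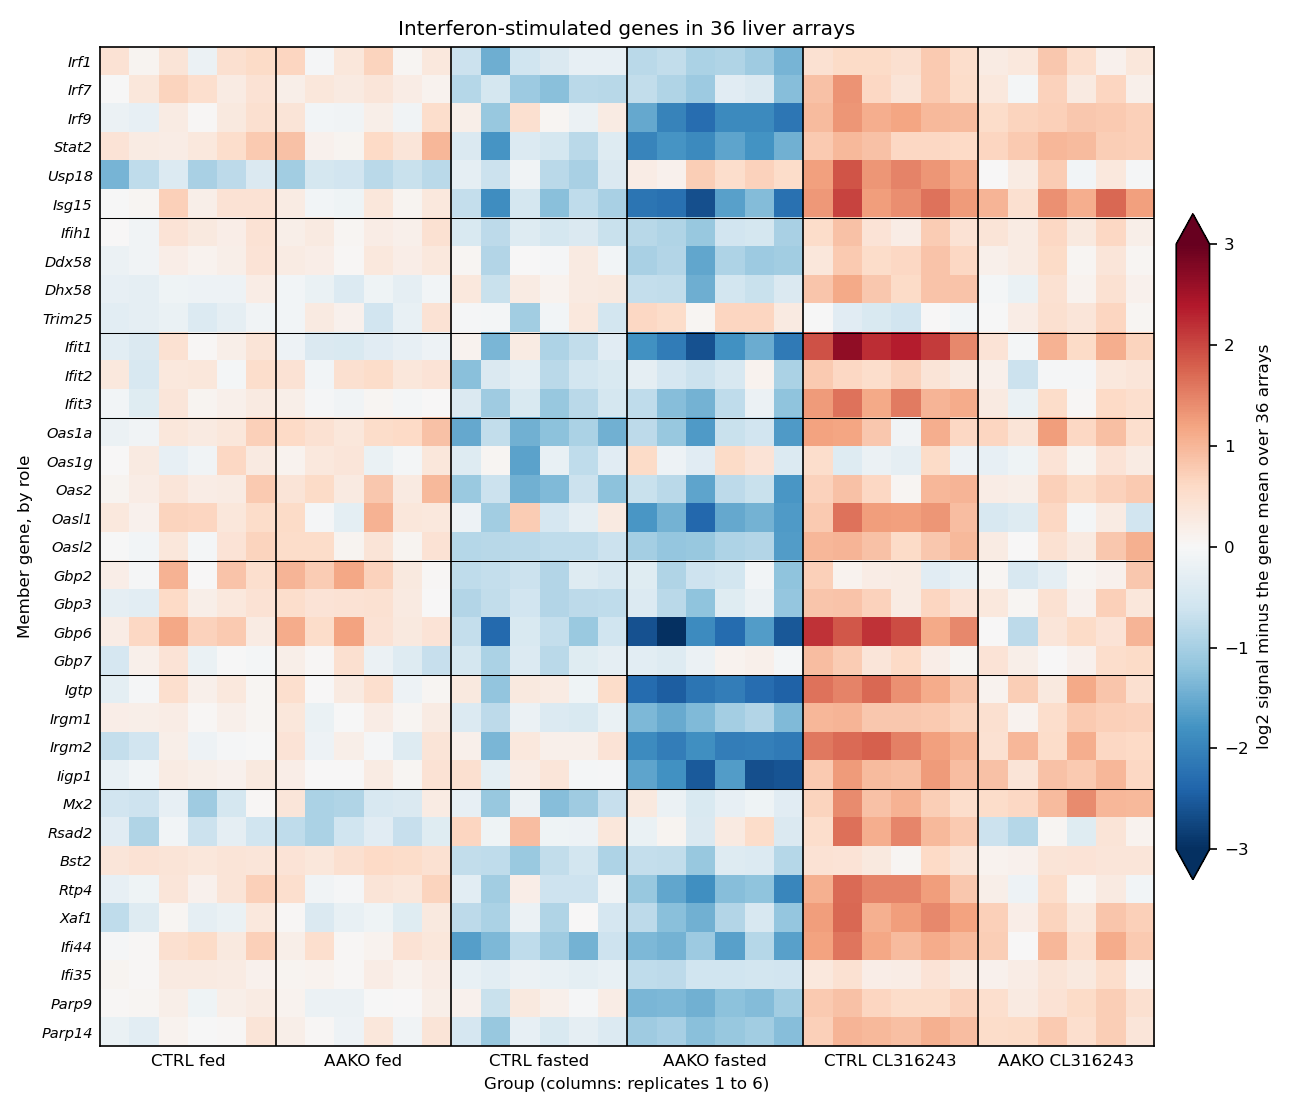
Log2 signal of each of the 35 members (rows, grouped by role between the thin lines) on each of the 36 arrays (columns, replicates 1 to 6 of each group), as the difference from the gene's mean over all arrays. CTRL mice after CL316243 form the reddest block and fasted AAKO mice the bluest, while the fed groups look alike.

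CL316243 against feeding asks how the liver differs after the stimulation of fat breakdown. In CTRL mice 25 of the 35 members were called and all 25 rose, where 23.1% of all tested genes were called and 10.4% were called higher. The median difference of the members was 0.70, against -0.03 over all tested genes. Every immunity-related GTPase (4 of 4), 7 of 9 members in the group of other effectors, 3 of 4 cytosolic RNA sensors and their cofactor, 3 of 4 guanylate-binding proteins, 3 of 5 OAS genes, 2 of 3 IFIT genes and 3 of 6 regulators rose. Within wash batch 1 alone 17 members were called, and within wash batch 2 alone 13, all higher, where 8.67% and 6.7% of all tested genes were called.

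Usp18, which removes Isg15 from proteins and dampens receptor signalling, lay at -0.19, 0.44 and 0.80 (lowest, median, highest) in fed CTRL mice and at 2.31, 2.54 and 3.09 after CL316243, a rise of 2.18 ± 0.17 (adjusted p = 1.84e-10). Ifit1, which binds viral RNA that lacks host cap marks, went from -1.59, -1.05 and -0.69 to 0.27, 1.00 and 1.51, a rise of 2.06 ± 0.24 (adjusted p = 2.34e-07). In both genes every array of the CL316243 group was above every fed array. Irgm2, a GTPase that acts at membranes around intracellular pathogens, went from 2.21, 2.82 and 3.09 to 3.99, 4.48 and 4.71, a rise of 1.70 ± 0.21 (adjusted p = 6.3e-07). Rsad2 (viperin), an antiviral enzyme, went from -1.42, -0.98 and -0.60 to 0.01, 0.52 and 1.13, a rise of 1.56 ± 0.22 (adjusted p = 5.99e-06). These groups did not overlap either, and for 18 members in all the groups were apart, each time with CL316243 higher (5.72% of all tested genes were apart and higher, 6.61% apart and lower). Xaf1, a proapoptotic protein induced by interferon, went from -0.73, -0.20 and 0.35 to 1.11, 1.29 and 1.77, a rise of 1.53 ± 0.18 (adjusted p = 3.67e-07), which was 0.97 when all its probes were averaged. Mx2, a gene of the dynamin-like GTPase family, went from -0.40, 0.11 and 0.70 to 1.21, 1.48 and 2.09, a rise of 1.39 ± 0.22 (adjusted p = 2.52e-05) that was 1.06 and not called within wash batch 2 alone. All of these genes had non-overlapping groups, while the 10 members that were not called, among them Irf1, Irf7, Stat2, Oas2 and Bst2, had differences between -0.31 (Gbp2) and 0.40 (Irf7).

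In AAKO mice 12 of the 35 members were called between CL316243 and feeding, 11 higher and 1 lower. The background was 31.4% of tested genes, 15.5% higher and 15.9% lower, so the share of members called (34.3%) was near that of all genes. The median difference was 0.31. Mx2 rose by 1.30 ± 0.22 (adjusted p = 3.08e-05), from -0.27, 0.22 and 1.03 in fed mice to 1.22, 1.64 and 2.08. Isg15, the ubiquitin-like modifier, rose by 1.02 ± 0.22 (adjusted p = 0.000416), from 2.65, 2.95 and 3.12 to 3.27, 3.95 and 4.50. In both genes all treated arrays were above all fed arrays, as for 7 members in all (14.9% of all tested genes were apart, 7.25% higher and 7.69% lower). Usp18 rose by 0.93 ± 0.17 (adjusted p = 6.73e-05), from 0.16, 0.47 and 0.69 to 1.13, 1.34 and 1.96. Ifit1 rose by 0.92 ± 0.24 (adjusted p = 0.00339), from -1.61, -1.45 and -1.30 to -1.22, -0.53 and -0.07. Irgm2, from 2.54, 2.99 and 3.33 to 3.37, 3.53 and 4.00, rose by 0.64 ± 0.21 (adjusted p = 0.0194). Each of these 3 was apart between the groups as well. Xaf1 went from -0.39, -0.14 and 0.33 to 0.23, 0.72 and 0.87, a rise of 0.70 ± 0.18 (adjusted p = 0.00346) that was 0.45 and no longer called when its probes were averaged. Gbp2, a GTPase that coats pathogen membranes, was the member that fell, by 0.59 ± 0.22 (adjusted p = 0.0406), from -0.80, -0.11 and 0.32 to -1.31, -0.77 and -0.02; these groups overlapped, and the call was lost without the filter on dim probes, within either wash batch and without several arrays. Within wash batch 1 alone 11 members and 19.4% of all tested genes were called. Within wash batch 2 alone 3 members and 9.44% of all tested genes were called, and Ifit1 (1.06), Irgm2 (0.60) and Xaf1 (0.52) were not. The 11 members that rose in AAKO mice all rose in CTRL mice too, which is 100% of the AAKO list and 44% of the 25 of the CTRL list.

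Between fasted and fed mice, again across the 2 experiments, the members differed the other way. In fasted CTRL mice 23 of 35 were called, 1 higher and 22 lower (43.8% of all tested genes were called, 19.7% higher and 24.1% lower), with a median difference of -0.59 against -0.05 over all tested genes. All 5 OAS genes and all 4 guanylate-binding proteins fell, as did 4 of 6 regulators, 2 of 3 IFIT genes and 5 of 9 other effectors, while Ifih1 and Irgm1 were the only sensor and the only immunity-related GTPase called. Rsad2 was the member that rose, by 0.73 ± 0.22. With the probes of a gene averaged, Trim25 (0.54) and Parp9 (0.28) were called higher as well. Within wash batch 1 alone 15 members were called and within wash batch 2 alone 21, all lower, where 24.7% and 31.3% of all tested genes were called. For 16 members every fasted array was below every fed array (22.8% of all tested genes were apart, 12.7% lower and 10.1% higher).

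Oas1a, an enzyme that makes the signal for RNA degradation, went from 1.58, 2.06 and 2.48 in fed to 0.22, 0.43 and 1.01 in fasted CTRL mice, a fall of 1.45 on the log2 scale (SE 0.20, adjusted p = 3.16e-07). Oas2 of the same family went from 0.56, 0.71 and 1.27 to -0.96, -0.70 and -0.17 (-1.39 ± 0.18, adjusted p = 1.88e-07; -0.72 with its probes averaged). Both fell without overlap. Irf7, the factor that amplifies type I interferon production, went from 4.57, 4.98 and 5.26 to 3.35, 3.75 and 4.07 (-1.26 ± 0.16, adjusted p = 9.38e-08). Isg15 went from 2.78, 3.09 and 3.49 to 0.91, 1.91 and 2.26 (-1.32 ± 0.21, adjusted p = 7e-06). The fasted arrays of both genes lay below all fed arrays. Gbp6 went from -2.06, -1.62 and -1.12 to -4.59, -2.99 and -2.74 (-1.60 ± 0.29, adjusted p = 2.84e-05), and -0.74 with normexp background correction. Ifi44, a protein induced by interferon, went from -1.73, -1.32 and -0.997 to -3.35, -2.91 and -2.33 (-1.49 ± 0.18, adjusted p = 4.01e-08), -0.73 with that correction and -0.66 with its probes averaged. The groups were apart in both, but the size of the change depended on how background and probes were treated. Ifih1, a sensor of long viral RNA, went from 1.4999, 1.84 and 2.04 to 0.81, 1.11 and 1.22 (-0.75 ± 0.11, adjusted p = 2.8e-06). Irgm1, from 2.97, 3.10 and 3.16 to 2.15, 2.52 and 2.77, fell by 0.55 on the log2 scale (SE 0.11, adjusted p = 0.0002); the mean of its probes gave 0.0093, because the dim one of its 4 probes differed by 1.85 the other way.

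Between fasted and fed AAKO mice 32 members were called, 3 higher and 29 lower, where 63.6% of all tested genes were called, 27.5% higher and 36.1% lower. The median difference was -1.28 against -0.10 over all tested genes. All 4 immunity-related GTPases and all 3 IFIT genes fell, and the groups were apart for 29 members (42.7% of all tested genes). Igtp went from 2.78, 3.11 and 3.44 to 0.46, 0.65 and 0.87 (-2.49 ± 0.21, adjusted p = 6.53e-12). Iigp1, of the same family, went from 6.01, 6.12 and 6.41 to 3.35, 3.81 and 4.41 (-2.30 ± 0.16, adjusted p = 1.28e-13). Gaps of more than 1 log2 unit separated the fed from the fasted arrays in both. Irf9, a DNA-binding part of the complex with Stat2, went from 2.48, 2.63 and 3.11 to 0.30, 0.63 and 1.05 (-2.10 ± 0.18, adjusted p = 6.07e-12). Stat2, from 3.31, 3.72 and 4.23 to 1.26, 1.46 and 1.80, fell by 2.25 on the log2 scale (SE 0.17, adjusted p = 9.04e-13). Thus the arrays of each condition were again apart. The second, dimmer probe of Stat2 differed by -0.92 between fasted and fed AAKO mice. Isg15 went from 2.65, 2.95 and 3.12 to 0.14, 0.57 and 1.48 (-2.17 ± 0.21, adjusted p = 2.03e-10). Gbp6 had the widest fall, from -1.99, -1.79 and -1.07 to -5.29, -4.70 and -3.94 (-3.01 ± 0.29, adjusted p = 1.01e-10), which was -1.16 with normexp background correction and -1.72 in the authors' deposited table. The members called higher were Usp18, Trim25 and Rsad2, with differences of 1.22, 0.47 and 0.59. Within wash batches 1 and 2 alone 30 and 31 members were called, where 50.1% and 51.4% of all tested genes were called. Of the 22 members that fell in CTRL mice 20 also fell in AAKO mice, which is 90.9% of the CTRL list and 69% of the 29 of the AAKO list.

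Fasting against CL316243, the comparison of conditions within experiment 1, separated nearly all members. In CTRL mice 34 of 35 members were called and all 34 were lower in fasted mice (37.1% of all tested genes were called, 19.3% lower). The median was -1.35 against -0.02 over all tested genes, and 32 members had groups that did not overlap (9.74% of all tested genes were apart and lower, 8.18% apart and higher). Trim25, whose protein activates the sensor Ddx58, was the member not called, at 0.0048 ± 0.16. Within wash batches 1 and 2 alone 30 and 31 members were called, all lower, where 18.8% and 24.9% of all tested genes were called.

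Gbp6 lay at -4.59, -2.99 and -2.74 in fasted and at -1.14, -0.37 and -0.11 in CL316243-treated CTRL mice (-2.77 ± 0.29, adjusted p = 5.6e-09; -1.53 with normexp background correction). Ifit1 lay at -2.53, -1.69 and -0.90 against 0.27, 1.00 and 1.51 (-2.61 ± 0.24, adjusted p = 4.5e-10). Isg15 lay at 0.91, 1.91 and 2.26 against 4.03, 4.13 and 4.82 (-2.50 ± 0.21, adjusted p = 1.46e-10). For each of the 3 the highest fasted array was more than 1 log2 unit below the lowest treated array. Ifi44 lay at -3.35, -2.91 and -2.33 against -0.75, -0.58 and -0.09 (-2.31 ± 0.18, adjusted p = 1.85e-11; -1.26 with normexp). Ifit3 lay at -0.39, 0.09 and 0.32 against 1.77, 1.96 and 2.37 (-2.02 ± 0.17, adjusted p = 1.3e-10). Oas1a lay at 0.22, 0.43 and 1.01 against 1.66, 2.70 and 2.97 (-2.02 ± 0.20, adjusted p = 1.41e-09). No fasted array reached a treated array in these genes either.

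**Figure D2:**
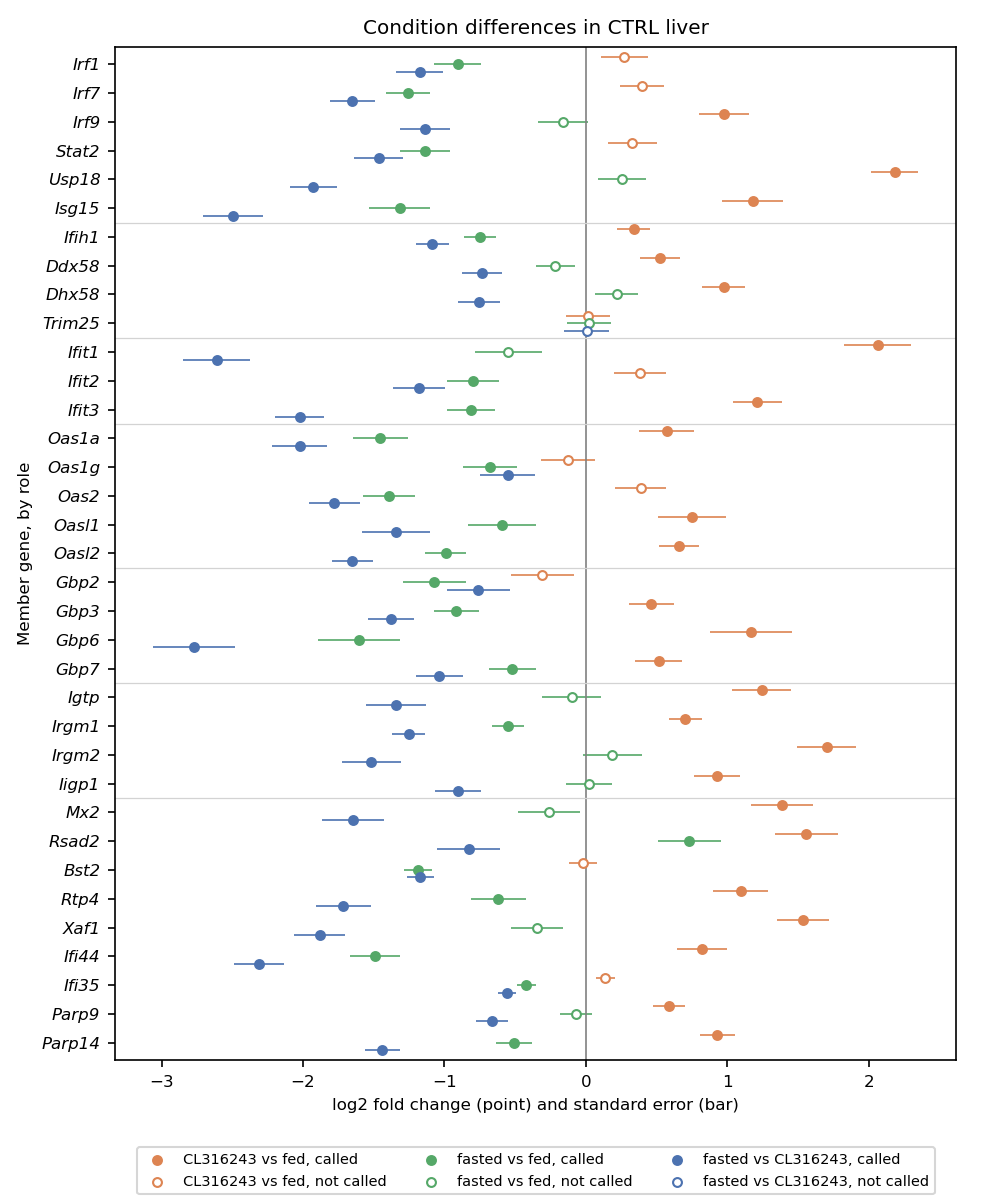
Differences between the conditions in CTRL mice for the 35 members, as log2 fold changes with standard errors; filled points were called at an adjusted p under 0.05 and open points were not. All 25 called points for CL316243 against fed lie above 0, 22 of the 23 called points for fasted against fed lie below 0 (Rsad2 is above), and all 34 called points for fasted against CL316243 lie below 0.

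In AAKO mice 31 of 35 members were called between fasting and CL316243, all lower in fasted mice, where 60.0% of all tested genes were called and 34.1% were lower. The median was -1.57 against -0.08 over all tested genes. Usp18, Trim25, Oas1g and Rsad2 were not called, with differences of 0.29, 0.13, -0.08 and 0.19. Isg15 lay at 0.14, 0.57 and 1.48 in fasted and at 3.27, 3.95 and 4.50 in treated mice, 9.15-fold lower (-3.19 ± 0.22, adjusted p = 7.58e-14). Iigp1 lay at 3.35, 3.81 and 4.41 against 6.38, 6.81 and 6.98 (-2.90 ± 0.16, adjusted p = 2e-15). Igtp lay at 0.46, 0.65 and 0.87 against 3.05, 3.54 and 4.08 (-2.88 ± 0.21, adjusted p = 4.23e-13). The fasted and treated arrays of these genes lay more than 1 log2 unit apart. Irgm2 lay at 0.81, 0.86 and 1.07 against 3.37, 3.53 and 4.00 (-2.72 ± 0.21, adjusted p = 1.52e-12). Irf9 lay at 0.30, 0.63 and 1.05 against 3.13, 3.30 and 3.39 (-2.68 ± 0.18, adjusted p = 5.19e-14). Ifit1 lay at -3.77, -3.12 and -2.65 against -1.22, -0.53 and -0.07 (-2.62 ± 0.24, adjusted p = 4.99e-11; -1.45 with normexp). Those 3 were apart as well. Within wash batches 1 and 2 alone 31 and 28 members were called, where 47.9% and 45.5% of all tested genes were called. The 31 members that were lower in AAKO mice were also lower in CTRL mice, which is 100% of the AAKO list and 91.2% of the 34 of the CTRL list.

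The genotypes did not differ in fed mice beyond the spread between arrays. 0 of the 35 members were called by limma (0.0788% of all tested genes were, 0.0415% higher and 0.0373% lower), none had an unadjusted p under 0.05, and the smallest adjusted p was 0.783. Differences lay between -0.34 (Ifit1) and 0.34 (Oas1a), with standard errors between 0.066 and 0.29. No member had groups that were apart.

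In fasted mice the genotypes differed. 24 of the 35 members were called, 5 higher and 19 lower in AAKO mice, with 49.2% of all tested genes called, 21.9% higher and 27.3% lower. The median was -0.37 against -0.03 over all tested genes, and it was -0.67 within wash batch 1 alone and -0.07 within wash batch 2 alone. All 4 immunity-related GTPases fell, with a median of -2.11, as did 3 of 4 sensors (Ifih1, Ddx58, Dhx58), 3 of 6 regulators (Irf9, Stat2, Isg15), 5 of 9 other effectors, 2 of 5 OAS genes (Oasl1, Oasl2), 1 of 3 IFIT genes (Ifit1) and 1 of 4 guanylate-binding proteins (Gbp6). The groups were apart for 11 members that were lower and 1 that was higher (11.5% and 9.71% of all tested genes). Of the 35 members, 21 were called within wash batch 1 alone, 1 higher and 20 lower, and within wash batch 2 alone 17, 5 higher and 12 lower. Within these batches 36.3% and 32.3% of all tested genes were called.

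Igtp lay at 1.76, 3.21 and 3.50 in fasted CTRL and at 0.46, 0.65 and 0.87 in fasted AAKO mice, 4.95-fold lower (-2.31 ± 0.21, adjusted p = 1.69e-10). Iigp1 lay at 5.68, 6.08 and 6.48 against 3.35, 3.81 and 4.41 (-2.25 ± 0.16, adjusted p = 1.55e-12). Irgm2 lay at 1.54, 3.07 and 3.32 against 0.81, 0.86 and 1.07 (-1.97 ± 0.21, adjusted p = 3.31e-09). In all 3 of these GTPases the AAKO arrays were below every CTRL array, and replicate 2 of the fasted CTRL group was the CTRL array nearest to them. Irf9 lay at 1.46, 2.70 and 3.08 against 0.30, 0.63 and 1.05 (-1.91 ± 0.18, adjusted p = 2.17e-10), and its other probe gave -1.87. Oasl1, an OAS-like protein without synthetase activity, lay at 1.68, 2.50 and 3.47 against 0.36, 1.09 and 1.31 (-1.54 ± 0.24, adjusted p = 2.81e-06; -1.01 within wash batch 2 alone). Ifit1 lay at -2.53, -1.69 and -0.90 against -3.77, -3.12 and -2.65 (-1.50 ± 0.24, adjusted p = 3.89e-06; -0.73 with normexp and -0.99 within wash batch 2 alone). AAKO arrays were again below all CTRL arrays. Replicate 2 was the lowest of the fasted CTRL arrays for 20 of the 35 members and for 18 of the 19 that fell. Without it the differences of the 6 genes above were -2.55 (Igtp), -2.34 (Iigp1), -2.25 (Irgm2), -2.14 (Irf9), -1.72 (Oasl1) and -1.68 (Ifit1), and all stayed called.

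The 5 members called higher in fasted AAKO mice were singled out after their values were seen. Usp18 lay at 0.23, 0.67 and 1.11 in fasted CTRL and at 1.33, 1.75 and 1.94 in fasted AAKO mice, a rise of 1.01 ± 0.17 with no overlap. The other 4, with overlapping groups, were Trim25 (0.70, on a probe that its other probes go against), Oas1g (0.65), Mx2 (0.59) and Gbp7 (0.45). Irf7, Oas1a, Oas2, Gbp2, Gbp3 and Bst2 were lower in fasted than in fed mice of both genotypes, and their genotype differences in fasted mice, between 0.02 and 0.13, were not called.

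After CL316243 the genotypes differed in 16 of the 35 members, with 15 lower and 1 higher in AAKO mice. Of all tested genes 24.6% were called, 11.6% lower and 13.0% higher. The median was -0.35 against 0.03 over all tested genes, and for 10 members all AAKO arrays lay below all CTRL arrays (5.67% of all tested genes, with 5.66% apart and higher). All 3 IFIT genes fell, as did 5 of 9 other effectors, 2 of 4 immunity-related GTPases, 2 of 4 sensors and 1 each of the regulators, the OAS genes and the guanylate-binding proteins. Trim25 was the member called higher, on a probe that its other probes go against. Within wash batch 1 alone 13 members were called, all lower. Within wash batch 2 alone, where the AAKO group had 2 arrays, 3 were called, 1 higher and 2 lower. Within these batches 12.3% and 6.28% of all tested genes were called.

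Gbp6 lay at -1.14, -0.37 and -0.11 in CTRL and at -3.06, -1.89 and -1.26 in AAKO mice after CL316243 (-1.52 ± 0.29, adjusted p = 0.000184; -0.94 with normexp). Ifit1 lay at 0.27, 1.00 and 1.51 against -1.22, -0.53 and -0.07 (-1.49 ± 0.24, adjusted p = 2.02e-05). Oasl1 lay at 3.50, 3.95 and 4.35 against 2.13, 2.50 and 3.34 (-1.32 ± 0.24, adjusted p = 0.000116). The AAKO arrays of all 3 were below the CTRL arrays. Rsad2 lay at 0.01, 0.52 and 1.13 against -1.36, -0.66 and -0.12 (-1.30 ± 0.22, adjusted p = 5.2e-05). Usp18 lay at 2.31, 2.54 and 3.09 against 1.13, 1.34 and 1.96 (-1.20 ± 0.17, adjusted p = 2.48e-06). Rtp4, a chaperone that also restrains flaviviruses, lay at 3.39, 3.96 and 4.28 against 2.43, 2.70 and 3.11 (-1.17 ± 0.20, adjusted p = 3.77e-05). Those groups were apart too. Within wash batch 2 alone none of the 6 was called, with differences of -1.46 (Gbp6), -1.04 (Ifit1), -0.70 (Oasl1), -0.95 (Rsad2), -0.88 (Usp18) and -0.83 (Rtp4), and within wash batch 1 alone all 6 were. Of the members that were lower in AAKO mice, 10 were called in both fasted and treated mice, 52.6% of the 19 and 66.7% of the 15; they were Ddx58, Dhx58, Gbp6, Ifit1, Igtp, Irgm2, Oasl1, Parp14, Rtp4 and Xaf1.

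**Figure D3:**
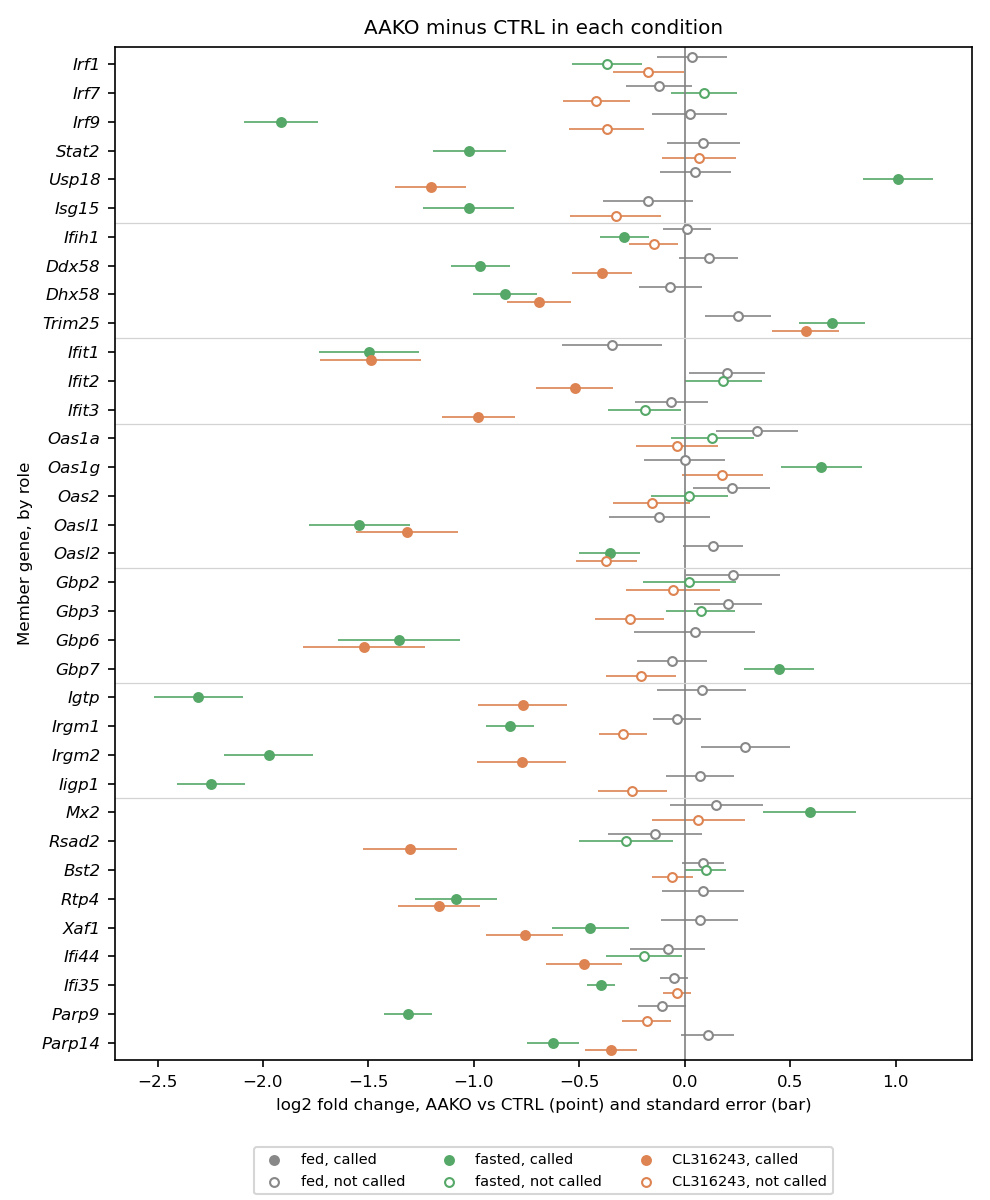
Difference of AAKO from CTRL mice for the 35 members in each condition, as log2 fold changes with standard errors; filled points were called at an adjusted p under 0.05. Fed differences lie between -0.34 and 0.34 and none is called, whereas Igtp, Iigp1 and Irgm2 reach about -2 in fasted mice and Usp18 lies on opposite sides of 0 in fasted and treated mice.

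Interaction terms tested whether the genotype difference itself changed between conditions. Between fasted and fed mice 17 of the 35 members were called, 1 higher and 16 lower, against 33.6% of all tested genes (15.0% higher and 18.6% lower). The terms were -2.39 ± 0.30 for Igtp (adjusted p = 2.84e-07), -2.32 ± 0.23 for Iigp1 (adjusted p = 7.95e-09), -2.26 ± 0.30 for Irgm2 (adjusted p = 6.5e-07) and -1.94 ± 0.25 for Irf9 (adjusted p = 5.08e-07). Thus the difference of fasted from fed mice was more negative in AAKO than in CTRL mice for these genes. In CTRL mice none of them was called between fasted and fed, at -0.10 (Igtp), 0.02 (Iigp1), 0.19 (Irgm2) and -0.16 (Irf9). The terms for Oasl1 (-1.42 ± 0.34, adjusted p = 0.00139), Gbp6 (-1.40 ± 0.41, adjusted p = 0.00762) and Ifit1 (-1.15 ± 0.34, adjusted p = 0.00785) depended on the processing. Within wash batch 2 alone none of these 3 was called, and within wash batch 1 alone that of Gbp6 was not. With normexp background correction those of Gbp6 and Ifit1 were -0.42 and -0.49, not called, and in the authors' deposited table that of Gbp6 was -0.65, not called. Usp18 was the member with a positive term, 0.96 ± 0.24. Within wash batches 1 and 2 alone 17 and 5 members were called, where 21% and 13% of all tested genes were called.

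Between CL316243 and fed mice 9 of the 35 members had a called term, all negative, against 10.9% of all tested genes (6.24% positive and 4.64% negative). For these 9 the difference between treated and fed mice was lower in AAKO than in CTRL mice. All 9 rose in CTRL mice. In AAKO mice Usp18, Ifit1, Irgm2 and Xaf1 rose, and the other 5 were not called, with differences of 0.39 (Rsad2), 0.30 (Ifit3), -0.16 (Rtp4), -0.40 (Gbp6) and -0.44 (Oasl1). The terms were -1.57 ± 0.41 for Gbp6 (adjusted p = 0.0103), -1.25 ± 0.24 for Usp18 (adjusted p = 0.000478), -1.25 ± 0.28 for Rtp4 (adjusted p = 0.00248), -1.20 ± 0.34 for Oasl1 (adjusted p = 0.019), -1.16 ± 0.32 for Rsad2 (adjusted p = 0.0139), -1.14 ± 0.34 for Ifit1 (adjusted p = 0.024) and -1.06 ± 0.30 for Irgm2 (adjusted p = 0.0171). Ifit3 and Xaf1 were the other 2. Within wash batch 1 alone 2 members kept a called term and within wash batch 2 alone 0 had one, against 1.9% and 2.01% of all tested genes. Of the remaining 26 members, Dhx58 (-0.62), Igtp (-0.85), Ddx58 (-0.51), Parp14 (-0.46) and Iigp1 (-0.32) had terms that were called under other processing, for example Dhx58 (-0.80) with the slide as a fixed factor and Igtp (-0.92) in the authors' deposited table.

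Between fasted and CL316243-treated mice, within experiment 1, 14 terms were called (40% of the members), 5 positive and 9 negative. Among all tested genes 31.8% were called, 13.3% positive and 18.5% negative, so the share of members was near that of all genes. Usp18 had the largest, 2.22 ± 0.24 (adjusted p = 3.37e-08), since AAKO mice were above CTRL mice when fasted and below them after CL316243; within wash batches 1 and 2 alone it was 2.41 and 1.93. All 4 immunity-related GTPases had negative terms, among them Iigp1 (-1.997 ± 0.23, adjusted p = 1.21e-07), Igtp (-1.54 ± 0.30, adjusted p = 0.000168) and Irgm2 (-1.20 ± 0.30, adjusted p = 0.00225). The term of Iigp1 was -1.17 with its probes averaged. Irf9 (-1.54 ± 0.25, adjusted p = 1.75e-05) and Parp9, an ADP-ribosyltransferase family member (-1.13 ± 0.16, adjusted p = 2.8e-06), also had negative terms, that of Parp9 being -0.46 with its probes averaged. Ifit2, Ifit3 and Rsad2 had positive terms (0.70, 0.79 and 1.02). Ddx58, a sensor of short viral RNA (-0.58 ± 0.20, adjusted p = 0.0262), and Gbp7 (0.65 ± 0.24, adjusted p = 0.0326) were the only called members of their roles, and both calls were lost under several alternatives. That of Ddx58 was lost within wash batch 2 alone (-0.52), with the slide as a fixed factor (-0.50) and with only the compared groups fitted (-0.57). That of Gbp7 was lost within wash batch 1 (0.24) or 2 (1.12) alone, without the filter on dim probes (0.65), and without replicate 2 of the fasted CTRL group (0.59), of the treated CTRL group (0.61) or of the treated AAKO group (0.62). Within wash batch 2 alone Igtp (-1.33), Irgm2 (-0.98) and Irf9 (-1.24) were not called either. Within wash batches 1 and 2 alone 9 and 6 terms were called, against 19.5% and 12.6% of all tested genes.

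**Figure D4:**
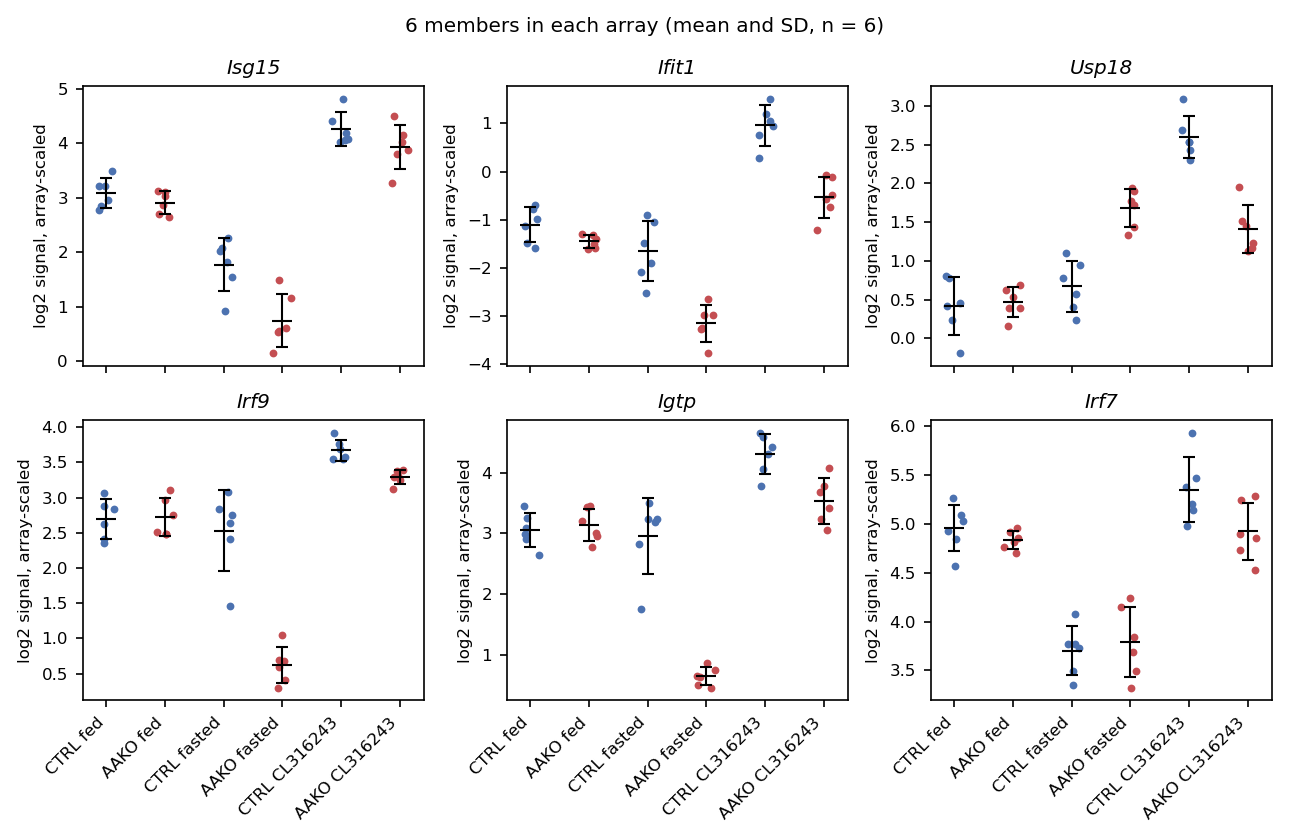
Levels of 6 members on each array (points) with the mean and SD of each group of 6 (bars), as log2 signal with the array's own 75th percentile taken off. Isg15, Irf9 and Igtp are lowest in fasted AAKO mice, Usp18 is higher in fasted AAKO than in fasted CTRL mice, and Irf7 falls with fasting to about the same level in both genotypes.

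19 of the 35 members had more than 1 probe, and for some of them the probes disagreed. Both Irf7 probes fell with fasting in CTRL mice (-1.26 and -1.27). The brightest probe of Trim25, which represents it here, was higher by 0.70 in fasted AAKO against CTRL mice, while its other 2 probes differed by -0.37 and -0.53, so the direction of Trim25 between the genotypes depends on the probe. After CL316243 in CTRL mice that probe differed by 0.02 from feeding, and the other 2 by 0.99 and 0.93. The second probe of Stat2 differed by -0.07 between fasted AAKO and CTRL mice, where the brighter one fell by 1.02. Of the 4 Parp9 probes, 2 differed by -1.31 and -1.48 in that comparison, and 2 dim ones by -0.01 and 0.81. Oas1a and Oas1g, and the members of the GTPase families, have close relatives in sequence, and cross-hybridisation between them was not tested. Probe positions are on mm9; for example the Isg15 probe covers chr4:155573649-155573708, the Igtp probe chr11:58020927-58020986 and the Usp18 probe chr6:121220874-121220933. The exon or UTR of a probe was not looked up here.

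Other genes of the pathway came from lists of 136 genes, of which 119 were tested. Among 18 ligand genes on the array, Ifnb1, Ifna4, Ifna12, Ifna16 and Ifne were well above background on 0 of 36 arrays and Ifng on 11. Of the 12 ligands tested, 0 were called between CL316243 and fed CTRL mice. Between the genotypes 0 were called after CL316243 and 1 (lower) in fasted mice. In AAKO mice 2 ligands fell with CL316243 against feeding, Ifng among them, where 15.9% of all tested genes fell. With fasting against feeding 2 ligands fell in each genotype, where 24.1% (CTRL) and 36.1% (AAKO) of all tested genes fell. Between fasted and treated mice 0 ligands were called in CTRL mice and 1 (higher) in AAKO mice. Of 6 receptor genes 1 rose with CL316243 in CTRL mice, where 10.4% of all tested genes rose. Among 8 inhibitors, Socs3, an inhibitor of Jak kinases that other cytokines also induce, rose with CL316243 by 1.96 ± 0.49 in CTRL and by 3.37 ± 0.50 in AAKO mice, and was higher in treated AAKO than CTRL mice by 1.68 ± 0.50. Socs1 was higher by 1.62 ± 0.59 in that comparison.

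Of 52 further interferon-stimulated genes tested, 22 rose and 2 fell with CL316243 in CTRL mice, where 10.4% of all tested genes rose and 12.7% fell. Ddx60 (1.62 ± 0.25) rose most, and Ifi30 (-0.83 ± 0.26) and Ifitm1 (-0.82 ± 0.14) fell. In AAKO mice 13 rose and 7 fell, where 15.5% of all tested genes rose and 15.9% fell. Between fasted and treated mice 39 were lower and 2 higher in CTRL mice (Cxcl10 at -2.18 ± 0.31, Tor3a at 1.14 ± 0.23 and Ifitm1 at 0.73 ± 0.14). There 19.3% of all tested genes were lower and 17.8% higher. In AAKO mice 38 were lower and 7 higher (Parp11 at -3.21 ± 0.23), where 34.1% of all tested genes were lower and 25.9% higher. Most of these calls follow the direction of most members in those comparisons, but each list also held genes that went the other way. Between the genotypes 23 fell and 9 rose in fasted AAKO mice (Parp11 at -2.37 ± 0.22, Lgals9 at -1.37 ± 0.10, Phf11b at 1.16 ± 0.15). In that comparison 27.3% of all tested genes fell and 21.9% rose. After CL316243 15 fell and 3 rose (Cmpk2 at -1.35 ± 0.31, Tor3a at -1.31 ± 0.23), where 11.6% of all tested genes fell and 13.0% rose. Irf8, an interferon regulatory factor of immune cells, rose by 1.03 ± 0.19 in fasted AAKO mice. With fasting against feeding in CTRL mice 22 of the 52 fell and 5 rose (Cxcl10 at -1.66 ± 0.31, Tor3a at 1.52 ± 0.23). There 24.1% of all tested genes fell and 19.7% rose. In AAKO mice 36 fell and 4 rose, where 36.1% of all tested genes fell and 27.5% rose. All 5 genes of MHC class II presentation, which professional antigen-presenting cells carry, fell with CL316243 in AAKO mice, with Ciita at -1.35 ± 0.25, and 0 of 5 were called in CTRL mice; the term for this difference was called for none of the 5.

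Markers of other liver cells moved as well, and their part in the results was not tested. All 7 Kupffer cell markers were above background on all arrays. Their mean level lay between 1.80 and 3.16 in fed CTRL mice, between 0.52 and 2.29 after CL316243 and between 1.19 and 2.98 after fasting. With CL316243 in CTRL mice, where the members rose, 4 of these 7 markers fell and 0 rose, and in AAKO mice 6 of 7 fell. Of all tested genes 12.7% fell with CL316243 in CTRL mice and 15.9% in AAKO mice. Between fasted and treated mice 0 of 7 were called in either genotype. With fasting, where the members fell, 2 of 7 fell in CTRL mice and 4 of 7 in AAKO mice, and 0 rose. There 24.1% (CTRL) and 36.1% (AAKO) of all tested genes fell. Of 6 endothelial markers 5 fell with CL316243 in CTRL mice, and 4 were higher in fasted than in treated mice of each genotype. In the latter comparison 17.8% (CTRL) and 25.9% (AAKO) of all tested genes were higher. Of 5 stellate cell markers 3 fell with CL316243 in each genotype. Between the genotypes 0 of 7 Kupffer cell markers were called in any condition. After CL316243 2 of the 6 endothelial markers were higher in AAKO mice (Lyve1 by 0.99, Clec4g by 0.57), where 13.0% of all tested genes were higher.

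In fasted AAKO mice, where the members were lowest, 3 of 5 neutrophil markers were higher than in fasted CTRL mice, S100a8 by 3.62, S100a9 by 3.39 and Retnlg by 3.86. The mean neutrophil marker level lay between -0.22 and 2.10 there and between -2.91 and 1.90 in fasted CTRL mice, where replicate 2 was the highest array. That array was also the lowest of its group in the mean of the members, at 0.62. Arrays of the fasted and fed AAKO groups are listed next for comparison. In fasted AAKO mice replicate 1, with the highest neutrophil mean (2.10), had a member mean of 0.57. Replicate 6, with the lowest (-0.22), had a member mean of 0.25. In fed AAKO mice replicate 6, with the highest neutrophil mean (1.51), had a member mean of 1.78, where the group median was 1.66. A link between the neutrophil markers and the members was not tested. Of 5 markers of plasmacytoid dendritic cells, cells that make much type I interferon, 2 were lower in fasted AAKO mice, Ccr9 at -0.73 and Spib at -1.22. Spib was well above background on 24 of 36 arrays, and the other markers of that list, among them the brighter Siglech, were not called. Also lower in fasted AAKO mice were 2 of 5 T cell markers tested, Cd3e (-0.24) and Cd4 (-0.64), and 2 of 4 cholangiocyte markers, Krt19 (-0.75) and Sox9 (-0.89). Higher were 2 of 6 endothelial markers, Lyve1 (1.83) and Stab2 (0.32), and 1 of 5 stellate markers, Reln (0.51), in a list with a median of 0.02. Of 4 B cell and 4 NK cell markers tested 0 were called. In this comparison 27.3% of all tested genes were lower and 21.9% higher. Among the T cell and NK cell markers, Cd8a was well above background on 2 of 36 arrays and Ncr1 on 0. The mean of the hepatocyte markers lay between 8.95 and 9.13 after CL316243 in CTRL mice and between 9.14 and 9.47 in fed CTRL mice; Tat and Ass1 were the markers that fell there. All 6 hepatocyte markers were called between the genotypes in fasted mice, Tat (1.16) and Ass1 (0.41) higher and Alb (-0.12), Ttr (-0.45), Apoa1 (-0.40) and Cyp2e1 (-0.19) lower in AAKO mice.

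**Figure D5:**
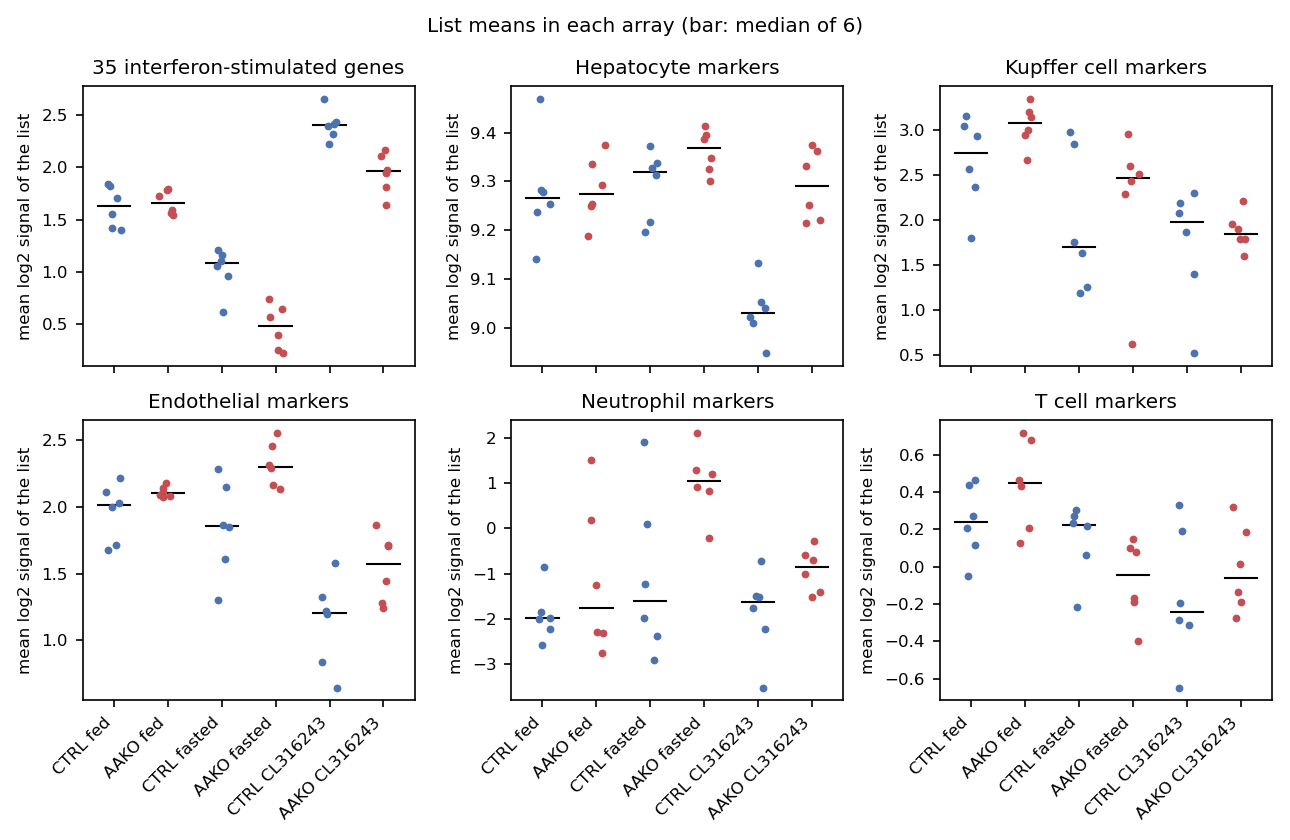
Mean log2 signal of the 35 members and of 5 lists of cell type markers on each array (points), with the median of each group (bars). The member means run from 0.22 to 2.66 and do not overlap between fasted and CL316243-treated mice, whereas the Kupffer cell means of these groups overlap.

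Within groups, arrays differed in how high the members stood. After the group means were taken off, Isg15 correlated at 0.89 with the mean of the other members over 36 arrays, Ifit1 at 0.86, Rtp4 at 0.82 and Ifit3 at 0.80, and at the other end Oas1g at 0.04 and Trim25 at 0.08. These describe arrays that share slides and wash batches. Of the genes outside the lists, those whose deviations were most like the members' mean over the 36 arrays were Gm9706 (0.86), Ifit3b (0.79), A730091E23Rik (0.74), Rnf213 (0.73) and Samd9l (0.73). Ifit3b, a close relative of Ifit3 in sequence, differed by 1.32 between CL316243 and feeding in CTRL mice, and Ifit3 by 1.21. A730091E23Rik differed by -2.56 between fasted AAKO and CTRL mice.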

How the data were processed

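The members and gene lists were chosen with earlier results of these data known. Per the file headers, spot intensity values came from Agilent Feature Extraction 10.10.1.1, which the submitters' processing notes also name beside limma. The processed intensity used here had a fitted background subtracted by that software, per the file headers, and the deposited marks (other values, 0 or 1) give signal well above background and outlier spots. The authors also deposited a table of log2 values, whose normalization is not given in the sources used here. In that table the arrays of a group held the same sorted values. It served as an alternative.

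Outlier spots (0.127% of all) were left out, spots of a probe were averaged, and log2 values had the array's 75th percentile taken off. A gene entered the test if, in some group, 5 or more of the 6 arrays had its probe well above background. limma 3.58.1 in R 4.3.3 fitted 6 group means and the wash batch to all 36 arrays, with eBayes and two-sided p-values adjusted by the Benjamini-Hochberg method over 24097 genes in each of 12 comparisons. The fit was tested on simulated data. Members were named in a comparison if called and among the 6 largest changes, or the only called member of their role; pathway genes by the 2 largest called changes in each direction. Alternatives were other scalings (quantile, array median), normexp background correction (offset 50), filters on dim probes, the mean of a gene's probes, wash batch and slide terms, each wash batch alone, only the compared groups, a replicate block and leaving out each array. The number of arrays limits the precision. The replicate numbers did not pair the arrays: over 90 pairs of same-numbered arrays the median correlation of deviations was 0.0033.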

Additional observations from a re-analysis of the deposited data

Results flagged for a closer look

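Among 156 groups of 6 arrays examined for members named above, 8 held an array whose gap to the nearest other array took a larger share of the group's range than the 95% critical value of Dixon's test; chance flags about 1 in 20 groups. Replicate 2 of the fasted CTRL group was the low array for Irgm2 (1.54, next 3.07), Gbp6 (-4.59, next -3.39), Stat2 (1.48, next 2.42), Ddx58 (1.25, next 2.07) and Parp9 (2.08, next 2.70). Replicate 3 of the fasted AAKO group was the low array for Oasl1 (0.36, next 0.97) and Ddx58 (0.58, next 1.04). Replicate 2 of the CTRL group after CL316243 was the high array for Ifi44 (-0.092, next -0.51).

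The genotype difference of several members changed between conditions, by an interaction term called at an adjusted p under 0.05 (limma). Between fasted and fed mice the terms were -1.94 (Irf9), -1.15 (Ifit1), -1.42 (Oasl1), -1.40 (Gbp6), -2.39 (Igtp), -2.26 (Irgm2) and -2.32 (Iigp1). Between CL316243 and fed mice they were -1.25 (Usp18), -1.14 (Ifit1), -1.20 (Oasl1), -1.57 (Gbp6), -1.06 (Irgm2), -1.16 (Rsad2) and -1.25 (Rtp4). Between fasted and CL316243-treated mice they were -1.54 (Irf9), 2.22 (Usp18), -0.58 (Ddx58), 0.65 (Gbp7), -1.54 (Igtp), -1.20 (Irgm2), -1.997 (Iigp1) and -1.13 (Parp9).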

How the results depend on the processing

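Of 168 counts of called members (12 comparisons under 14 alternatives that keep all arrays or whole wash batches), 159 were within 1.5 times of the value reported above. The other 9 came from a wash batch alone. Within wash batch 1 alone the counts were 15 for fasted against fed CTRL mice, 2 for the interaction of CL316243 against fed and 9 for that of fasted against CL316243. Within wash batch 2 alone they were 3 for the genotypes after CL316243, 3 and 13 for CL316243 against fed in AAKO and CTRL mice, and 0, 6 and 5 for the interactions of CL316243 against fed, fasted against CL316243 and fasted against fed; these fits had fewer arrays. With the replicate block the counts were 0, 24 and 15 for the genotypes in fed, fasted and treated mice, 22 and 32 for fasted against fed and 25 and 12 for CL316243 against fed in CTRL and AAKO mice, 34 and 30 for fasted against CL316243, and 17, 9 and 14 for the interactions, so no count moved by over 1.5 times. Of 90 same-numbered pairs 16 correlated above 0.1, and 6 of 36 arrays matched best with their own number.

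Leaving out each array in turn gave counts of 0 for the genotypes in fed mice, 20 to 23 in fasted mice and 12 to 18 after CL316243. They ran from 22 to 24 and 31 to 32 for fasted against fed, from 20 to 26 and 10 to 13 for CL316243 against fed, and from 33 to 34 and 29 to 32 for fasted against CL316243, in CTRL and AAKO mice. The interactions gave 16 to 20 (fasted against fed), 7 to 12 (CL316243 against fed) and 12 to 16 (fasted against CL316243). Of 2162 values of named members, 2094 kept their direction and call, 67 lost the call and 1 reversed, that of Irgm1 for fasted against fed CTRL mice, 0.0093 with its probes averaged. In the authors' deposited table Usp18 was called between fasted and treated AAKO mice (0.39, adjusted p = 0.0362, limma).

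In that table the median of all tested genes was 0.05 for fasted against treated AAKO mice, against -0.08 above, and the members' median -1.26 against -1.57. The share of all calls that were higher moved from 43.2% to 58% there, and from 48% to 59.8% in CTRL mice. Dim members such as Gbp6 and Ifit1 changed size with the background correction. The cause of these differences was not tested.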
